A study of Mus musculus with 52 samples.

Results

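The comparison described here sets vehicle-treated mouse intestinal organoids on day 5 of regrowth against the vehicle group of day 0, and asks how closely a culture regrown from dissociated cells had come back to the one it started from. Its members were taken by column name from the table of expression values: 4 libraries whose names place them in the DMSO group of day 5 and 4 in that of day 0, so 8 of the 52 libraries of the series. The organoids came from wild type C57BL/6 mice of 8 weeks, with no transgene or allele named, and both groups carry the vehicle label, DMSO being a common solvent for compounds such as those given to other groups. Each group held 2 organoid cultures from male littermates, numbered 1 and 2 in the library names, and 2 RNA purifications of each culture, so a group has 4 libraries but 2 biological samples.

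Per the labels' protocols, organoids were maintained in IntestiCult medium and dissociated. Wells received 50000 single cells each, and RNA came from 3 wells together. From day 0 to day 3 the medium was ENR, named for R-Spondin, EGF and Noggin. It was supplemented with Wnt3a-conditioned medium at 20%, 10 µM of the ROCK inhibitor Y-27632 and 3 µM of the GSK3 inhibitor CHIR99021. From day 3 to day 5 it was ENR alone, and DMSO was given on day 0 and again on day 3. Day 5 organoids had therefore been in another medium than the maintained culture, so the days in culture and the medium cannot be told apart in any value below. Whether day 0 RNA was taken from whole organoids or from the dissociated cells is not given in the sources used here.

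The epithelium of the small intestine is renewed from Lgr5-positive stem cells at the crypt base, which Wnt signalling keeps dividing. Their daughters become absorptive enterocytes, or secretory goblet, Paneth, enteroendocrine and tuft cells. Organoids keep this hierarchy in culture. A single dissociated cell first forms a cyst and passes through a transient state with genes of the fetal intestine and of the injured epithelium, linked to the transcription factor YAP, before crypts bud and differentiated cells appear.

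The 8 libraries held 12895667 to 19100406 reads assigned to genes, and 14459 to 15800 genes above 0. Values are RPKM, reads per kilobase of gene, scaled to the depth of the library. All values of a gene are given below in the order culture 1, both duplicates, then culture 2, both duplicates. The markers matched the label of an epithelial culture. The summed level of 11 pan-epithelial genes was 7899 to 9197 RPKM on day 5 and 5637 to 6064 RPKM on day 0. All 13 fibroblast genes were under 1 RPKM in every one of the 8 libraries, with sums of 0.130 to 0.491 RPKM on day 5 and 0.749 to 1.13 RPKM on day 0, and their defining markers Col1a1, Pdgfra and Dcn never reached 1 RPKM. Of 16 immune cell genes 14 were under 1 RPKM throughout, with sums of 3.63 to 8.21 RPKM on day 5 and 5.36 to 7.29 RPKM on day 0.

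Most tested genes of fat absorption, sugar transport, detoxification and the fetal-like state were higher on day 5, and so were many brush border and mucus genes. Most genes of stem cells, hormone-producing cells, DNA replication and ribosome biogenesis were lower. Single genes such as Zg16, Apoa1 and Alpi stood many-fold higher, and Sst, Fos and Jun many-fold lower. Testing covered 12443 genes that reached 1 RPKM in 4 or more libraries of the series. Of these, 2333 (18.7%) were higher and 6353 (51.1%) were lower on day 5 at an adjusted p under 0.05 (limma on the means of duplicates on the log2(RPKM + 1) scale, n = 2 cultures per group, Benjamini-Hochberg adjustment, two-sided). The median gene lay at a log2 difference of -0.305, so the excess of lower calls depends on the scaling. After median-of-ratios scaling, which moved the median to 0.015, 4082 genes (32.8%) were higher and 3606 (29%) lower. Every list below is therefore to be read against a median of -0.305, and counts after scaling stand beside the main ones. With the shallow day 1 library of 12443 reads kept in the fit, 1489 genes were higher and 3718 lower.

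Most of these differences were small. The 95% confidence interval lay wholly within 2-fold of day 0 for 8102 genes (65.1%), of which 4596 were also called higher or lower. A called difference of at least 2-fold was found for 821 higher and 1414 lower genes, of at least 4-fold for 262 higher and 170 lower genes, and of at least 8-fold for 102 higher and 37 lower genes. All 4 day 5 libraries lay above all 4 day 0 libraries for 2542 genes (20.4%) and below them for 6467 (52%). Among the tested genes, 238 passed the filter only through the day 0 libraries and 30 only through those of day 5. Genes of that kind were tested only through that group, so the filter set or favoured their direction, though not all were called. They include Fosb, Egr2, Pla2g1b, Pgc, Pou2f3 and Trpm5, which are described below as levels. The gene lists hold 1163 genes of the table, of which 994 were tested, and 11 of these passed only through day 0 and 1 only through day 5. Of the immediate early list 4 of 24 tested members were of that kind, and of the tuft list 2 of 10, with 13 further tuft genes of the table below the filter.

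**Figure D1:**
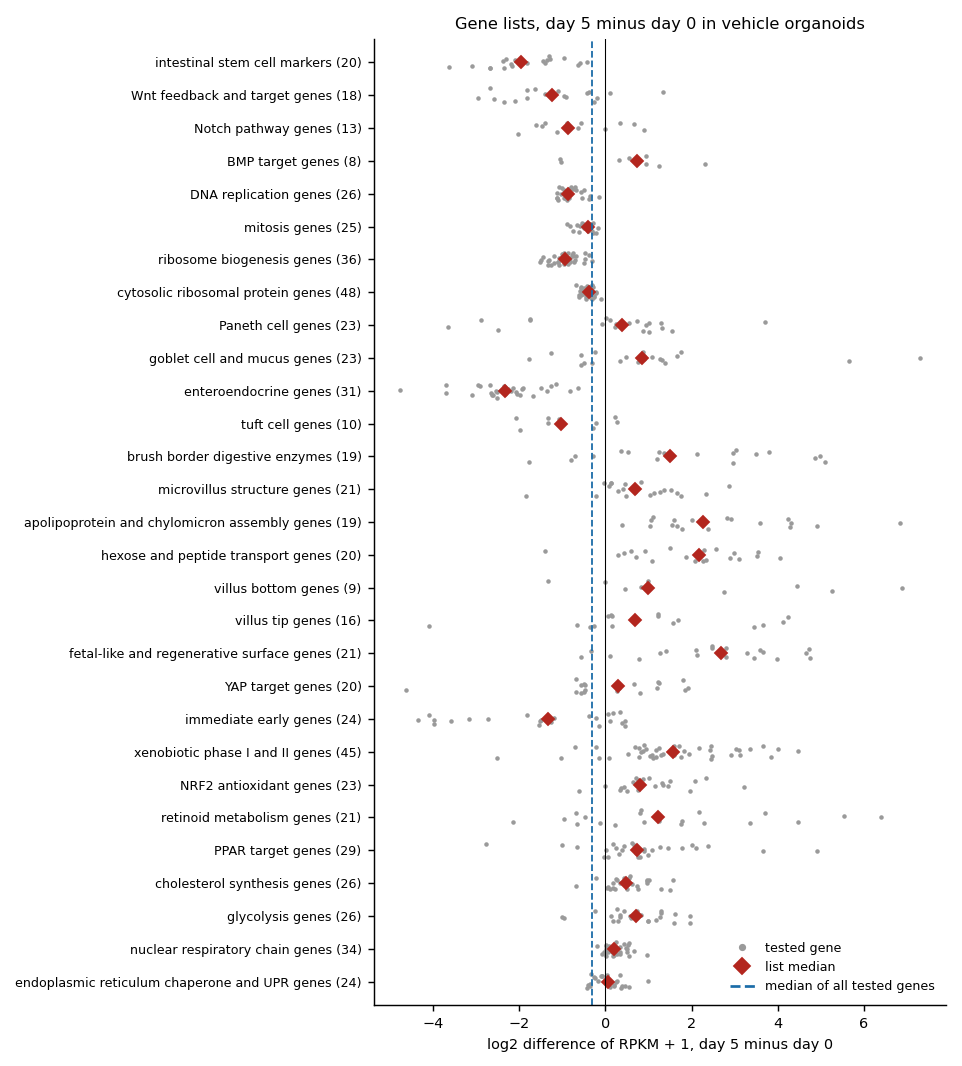
Log2 difference of RPKM + 1, day 5 minus day 0 in vehicle organoids, for the gene lists named on the left, with the number of tested members in parentheses. Grey points are genes, red diamonds list medians, the dashed line the median of all tested genes at -0.305. Lists of fat absorption, sugar transport and the fetal-like state lie farthest to the right, and enteroendocrine and stem cell lists farthest to the left.

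Markers of the intestinal stem cell were lower on day 5. 0 of 20 tested members were higher and 20 lower, with a median log2 difference of -1.96 and 0 higher and 17 lower after median-of-ratios scaling. Lgr5, the receptor for R-spondin that marks the crypt base stem cell, had 8.67, 9.32, 16.8 and 17.3 RPKM on day 5, against 84.4, 87.2, 86.3 and 83 RPKM on day 0. The groups did not overlap, culture 2 was above culture 1 on day 5, and the log2 difference was -2.68 ± 0.24, adjusted p = 8.76e-08 (SE beside each difference throughout). Olfm4, a secreted glycoprotein of the stem cell zone, had 37.1, 36.9, 219.6 and 202 RPKM on day 5, against 775, 762, 778 and 740.0 RPKM on day 0. All day 5 libraries were below all of day 0 (-3.09 ± 0.53, adjusted p = 7.6e-05), and the day 5 cultures stood apart from each other far more than the day 0 cultures did. Smoc2 and Tnfrsf19, 2 further markers of crypt base cells, fell by 2.38 and 3.63 on the log2 scale (adjusted p = 1.74e-08 for Smoc2 and 1.18e-12 for Tnfrsf19). Ascl2, the transcription factor of stem cell identity, had 3.14, 3.77, 8.76 and 9.07 RPKM on day 5, against 12.5, 13.2, 10.9 and 11.4 RPKM on day 0 (-0.97 ± 0.28, adjusted p = 0.005). Its difference was -0.39 without culture 1 of day 5 (adjusted p = 0.162), and after median-of-ratios scaling it was -0.63, adjusted p = 0.065.

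Wnt target genes followed the same direction in most members. In the Wnt list 1 of 18 tested members were higher and 13 lower, with 2 higher and 11 lower after median-of-ratios scaling. Over all genes 51.1% were lower, and 29% after that scaling. Axin2, the negative feedback scaffold of the pathway, had 13.2, 16.6, 26.6 and 25.6 RPKM on day 5, against 115, 105, 99.2 and 97.7 RPKM on day 0, with no overlap between the days (-2.35 ± 0.20, adjusted p = 5.66e-08). Nkd1, another feedback inhibitor, was nearly silent on day 5, with 0.0311, 0.0324, 0.0869 and 0.126 RPKM on day 5, against 7.9, 8.09, 6.42 and 6.63 RPKM on day 0 (-2.95 ± 0.11, adjusted p = 2.07e-12). The Wnt antagonist Apcdd1 fell by 2.58 (adjusted p = 1.28e-10) and the ubiquitin ligase Rnf43, which removes Wnt receptors, fell by 1.82 (adjusted p = 1.04e-09), both on the log2 scale. The maintained culture and the day 5 culture were in media whose Wnt activity was not measured.

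Of the Notch list, 9 of 13 tested members were lower and 3 higher (3 higher and 7 lower after median-of-ratios scaling). That stands beside 51.1% lower over all genes, and 29% after that scaling. Hes1, the Notch effector that holds progenitors in the absorptive path, had 59.6, 62, 62.5 and 74 RPKM on day 5, against 144, 138, 136 and 144 RPKM on day 0 (-1.12 ± 0.08, adjusted p = 1.25e-08), without overlap. The receptor Notch1 fell by 1.61 and the ligand Dll1, made by secretory progenitors, fell by 0.89 on the log2 scale (adjusted p = 1.58e-08 for Notch1 and 0.000457 for Dll1). BMP target genes, which mark the differentiating upper epithelium, gave 4 higher and 2 lower of 8 tested (5 higher and 2 lower after median-of-ratios scaling). Log2 differences in the list ranged from -1.05 to 2.32. The 2 lower members are not among the Id genes described here. Id3 had 24.1, 30.3, 11.2 and 9.91 RPKM on day 5, against 1.84, 2.93, 2.91 and 2.91 RPKM on day 0, so every day 5 library was above every day 0 library (2.32 ± 0.49, adjusted p = 0.000507). Id1 had 34.9, 58.9, 20.3 and 20.0 RPKM on day 5, against 10.6, 12.6, 12.8 and 13.2 RPKM on day 0 (1.24 ± 0.38, adjusted p = 0.00804), with the highest values in culture 1. For Id1 the difference was 0.67 without culture 1 of day 5 (adjusted p = 0.171). For Id2 the cultures parted, with 72.7, 64.4, 30.4 and 31.4 RPKM on day 5, against 29.9, 28.1, 34.7 and 33.1 RPKM on day 0 (0.54 ± 0.44, adjusted p = 0.285), so culture 1 was above and culture 2 overlapped the day 0 range.

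Genes of DNA synthesis were lower on day 5, while their median had been above day 0 earlier in regrowth. In the replication list 0 of 26 tested members were higher and 24 lower, and 0 higher and 15 lower after median-of-ratios scaling. The list median was 0.58 on day 1, 0.55 on day 3, -0.67 on day 4 and -0.86 on day 5, all taken against the same day 0 libraries. Mcm2, a subunit of the replicative helicase, had 16.6, 18.4, 30.6 and 29.8 RPKM on day 5, against 56.4, 50.8, 49.1 and 48.7 RPKM on day 0 (-1.12 ± 0.20, adjusted p = 8.98e-05), the day 5 libraries all below those of day 0 and culture 1 the lowest. Pcna, the sliding clamp of the DNA polymerases, had 119, 119, 148 and 149.8 RPKM on day 5, against 189, 192, 184 and 181 RPKM on day 0 (-0.48 ± 0.13, adjusted p = 0.00375). The Pcna difference was -0.11, adjusted p = 0.492 after median-of-ratios scaling and -0.32 without culture 1 of day 5 (adjusted p = 0.0731). Mitosis genes gave 0 higher and 14 lower of 25 tested, a share near the 51.1% lower over all genes. After median-of-ratios scaling 0 were higher and 2 lower, beside 29% lower over all genes. Of the 25 genes, 21 had intervals within 2-fold of day 0, beside 65.1% of all genes. Mki67, the proliferation antigen, had 23, 26.2, 27.8 and 28.3 RPKM on day 5, against 51.3, 53.4, 49.2 and 44.1 RPKM on day 0 (-0.89 ± 0.18, adjusted p = 0.000406). Ccnb1, the cyclin of mitotic entry, had 15.5, 14.8, 19 and 20.7 RPKM on day 5, against 21.6, 22, 22.2 and 20.9 RPKM on day 0, a difference of -0.30 with a 95% interval of -0.70 to 0.10 (adjusted p = 0.16).

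Ribosome biogenesis genes were lower in 34 of 36 tested members and higher in 0, with 0 higher and 29 lower after median-of-ratios scaling. Their medians were 0.64 on day 1, 0.52 on day 3, -0.64 on day 4 and -0.93 on day 5. Ncl, the nucleolar protein nucleolin, had 88.7, 93.5, 124 and 121 RPKM on day 5, against 195, 195, 195 and 193 RPKM on day 0 (-0.88 ± 0.16, adjusted p = 0.000129). Polr1a, the large subunit of RNA polymerase I, fell by 1.33 on the log2 scale (adjusted p = 6.93e-07). The ribosomal protein genes themselves moved with the bulk of genes: 42 of 48 were called lower, but after median-of-ratios scaling 1 was higher and 1 lower, and all 48 intervals lay within 2-fold. Rplp0 had 1344, 1423, 1565 and 1626 RPKM on day 5, against 1953, 1923, 1975 and 2162 RPKM on day 0, a log2 difference of -0.43 ± 0.10, adjusted p = 0.00126, and -0.05, adjusted p = 0.673 after that scaling.

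**Figure D2:**
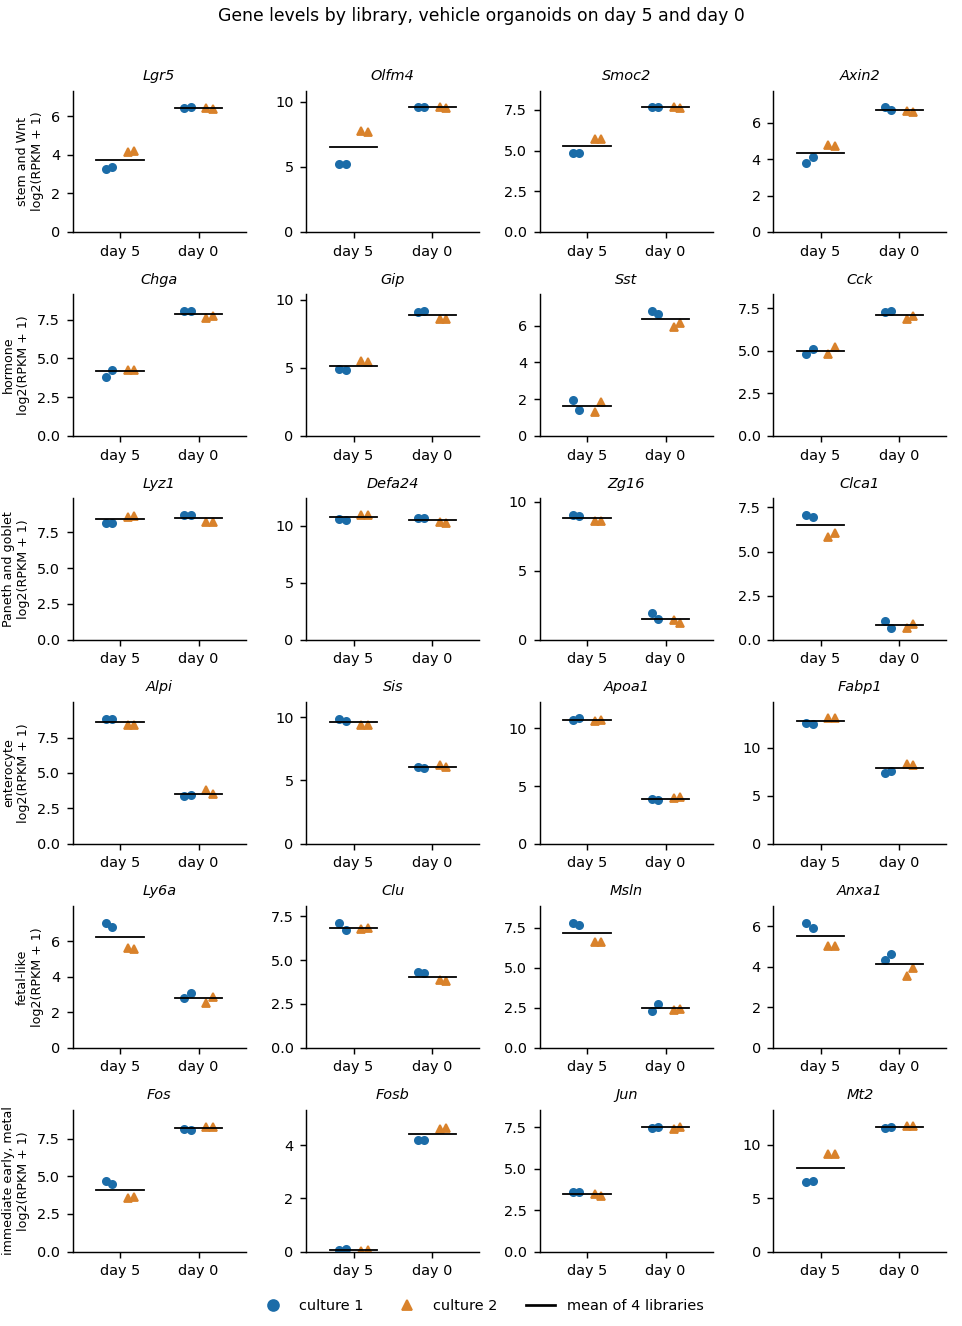
Level of single genes, log2(RPKM + 1), in the 4 day 5 libraries (left) and the 4 day 0 libraries (right) of vehicle organoids. Blue circles are culture 1, orange triangles culture 2, and lines the mean of 4 libraries. Lyz1 and Defa24 overlap between the days, and for the other genes shown the libraries of the days do not overlap.

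The secretory lineages did not share a direction. Genes of hormone-producing cells were lower almost throughout: in the enteroendocrine list 0 of 31 tested members were higher and 30 lower, the median was -2.32, and the counts were the same after median-of-ratios scaling, while over all genes 51.1% were lower. Chga, the chromogranin of hormone granules, had 13.2, 18, 18.4 and 18.4 RPKM on day 5, against 265, 264, 196 and 208 RPKM on day 0 (-3.70 ± 0.18, adjusted p = 5.83e-11). Gip, the incretin hormone of K cells, had 29.1, 27.5, 43.9 and 42.1 RPKM on day 5, against 551, 581, 378 and 379 RPKM on day 0 (-3.69 ± 0.25, adjusted p = 3.56e-09). Sst, the somatostatin of D cells, had 2.9, 1.69, 1.42 and 2.57 RPKM on day 5, against 109, 99.9, 59.6 and 70.7 RPKM on day 0 (-4.76 ± 0.36, adjusted p = 1.67e-08), the largest decrease among the genes the naming rule allows. For Chga, Gip and Sst every day 5 library was far below every day 0 library. The hormones Cck and Gcg fell by 2.13 and 2.51 on the log2 scale (adjusted p = 2e-06 for Cck and 9.94e-07 for Gcg). Their difference from day 0 was 1.81 for Cck and 1.62 for Gcg on day 1, and -2.97 for Cck and -3.24 for Gcg on day 3. The transcription factors of the lineage were low too, with 0.607, 0.921, 0.872 and 0.786 RPKM of Rfx6 on day 5, against 9.95, 9.85, 9.21 and 8.35 RPKM on day 0 (-2.53 ± 0.19, adjusted p = 1.03e-08), and Pax4 fell by 2.5 (adjusted p = 2.95e-09). Bulk RNA cannot tell fewer cells of a type from less RNA per cell, here and for every lineage below.

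In the values as deposited, tuft cell genes gave a share of lower calls near that of all genes. 6 of 10 tested members were lower and 1 higher (2 higher and 6 lower after median-of-ratios scaling), and without Pou2f3 and Trpm5, which passed the filter only through day 0, 4 of 8 (50%) were lower, beside 51.1% of all genes. After that scaling 29% of all genes were lower, and the scaled counts were not taken without Pou2f3 and Trpm5. Pou2f3, the tuft cell master regulator, had 0.468, 0.372, 0.523 and 0.527 RPKM on day 5, against 3.01, 1.92, 3.01 and 3.01 RPKM on day 0. Trpm5, their taste-transduction channel, had 0.184, 0.163, 0.365 and 0.515 RPKM on day 5, against 1.91, 1.98, 1.36 and 1.75 RPKM on day 0. Both were above 1 RPKM on day 0 and below it on day 5, a direction the filter fixed.

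Paneth cell genes were called in both directions: 8 of 23 tested members were higher and 5 lower, with 14 higher and 5 lower after median-of-ratios scaling. Over all genes 18.7% were higher and 51.1% lower, and 32.8% and 29% after that scaling. The list median over both cultures was 0.387, above the -0.305 of all genes. For the main granule products the cultures parted. Lyz1, the Paneth lysozyme, had 284, 288, 382 and 400.5 RPKM on day 5, against 419.8, 417, 296 and 294 RPKM on day 0, so that the days overlapped, and the log2 difference was -0.07 with a 95% interval of -0.63 to 0.49 (adjusted p = 0.822). Defa24, an alpha-defensin, had 1492, 1395, 1891 and 1989 RPKM on day 5, against 1630.0, 1657, 1260.0 and 1192 RPKM on day 0, again overlapping (mean 0.24, interval -0.33 to 0.81, adjusted p = 0.443). The alpha-defensin genes are near-identical copies, so reads may be split among them. In culture 1 the day 5 difference was -0.55 for Lyz1 and -0.19 for Defa24, in culture 2 it was 0.41 for Lyz1 and 0.66 for Defa24, and the list median was -0.19 in culture 1 and 0.89 in culture 2. On day 3 the same genes had stood at -1.47 for Lyz1 and -1.80 for Defa24. Wnt3, the Wnt ligand that Paneth cells give to stem cells, had 1.16, 0.742, 1.49 and 1.64 RPKM on day 5, against 7.62, 6.73, 5.66 and 6.24 RPKM on day 0 (-1.76 ± 0.15, adjusted p = 5.4e-08), all day 5 values below those of day 0. Habp2, a serine protease of the list, had 0.638, 2.06, 2.31 and 2.67 RPKM on day 5, against 32.5, 36.2, 34.4 and 32.6 RPKM on day 0 (-3.64 ± 0.14, adjusted p = 2.99e-12). In the other direction Mptx1, a mucosal pentraxin, had 9.68, 11.6, 31.9 and 28.4 RPKM on day 5, against 0.436, 0.424, 0.326 and 0.705 RPKM on day 0 (3.70 ± 0.29, adjusted p = 2.28e-08), most of it in culture 2. Ang4, a microbicidal angiogenin, rose by 1.30 (adjusted p = 0.00979). For Ang4 the difference was 1.22 without culture 1 of day 5 (adjusted p = 0.0569) and 1.05 without culture 2 of day 0 (adjusted p = 0.0835).

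Goblet cell and mucus genes were mostly higher: 15 of 23 tested members were higher and 5 lower, with 16 higher and 2 lower after median-of-ratios scaling. Zg16, a lectin-like protein of the mucus layer that binds bacteria, had 535, 515, 389.8 and 387 RPKM on day 5, against 2.84, 1.82, 1.65 and 1.34 RPKM on day 0. That is the largest difference of any gene the naming rule allows (7.31 ± 0.22, adjusted p = 2.26e-13), and no library of one day came near those of the other. Clca1, a secreted mucus-processing protease, had 133, 125, 56.5 and 64.3 RPKM on day 5, against 1.13, 0.603, 0.607 and 0.849 RPKM on day 0 (5.64 ± 0.40, adjusted p = 7.74e-09), with culture 1 above culture 2 on day 5. Muc2, the gel-forming mucin itself, had 7.92, 8.34, 14 and 15.8 RPKM on day 5, against 4.77, 4.71, 3.35 and 3.31 RPKM on day 0 (1.27 ± 0.24, adjusted p = 0.000182). The trefoil peptide Tff3 and the mucin-folding protein Agr2 rose by 1.32 and 1.39 (adjusted p = 0.000106 for Tff3 and 1.22e-06 for Agr2).

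Enterocyte genes were mostly higher on day 5. Brush border enzymes gave 13 higher and 3 lower of 19 tested, a median of 1.51, and 13 higher and 2 lower after median-of-ratios scaling. Alpi, the intestinal alkaline phosphatase, had 443, 455, 338 and 335 RPKM on day 5, against 9.33, 9.73, 12.6 and 10.5 RPKM on day 0. Sis, the sucrase-isomaltase that digests table sugar and starch ends, had 938, 822, 661 and 655 RPKM on day 5, against 64.2, 61.3, 71.8 and 67.2 RPKM on day 0. For both enzymes the lowest day 5 library was many times the highest of day 0 (5.09 ± 0.17, adjusted p = 1e-12 for Alpi and 3.50 ± 0.22, adjusted p = 1.63e-09 for Sis). Mep1b, the beta subunit of the metalloprotease meprin, had 101, 102, 95 and 97.4 RPKM on day 5, against 2.07, 2.8, 2.36 and 2.65 RPKM on day 0 (4.85 ± 0.14, adjusted p = 9.85e-14). Anpep, aminopeptidase N, went the other way, with 138, 146, 153 and 154 RPKM on day 5, against 517, 508, 497 and 489.7 RPKM on day 0 (-1.76 ± 0.23, adjusted p = 6.04e-06), and had been lower still on day 3, at -4.23. Lct, lactase, was low on both days, with 0.81, 1.1, 3.27 and 4.26 RPKM on day 5, against 0.368, 0.221, 0.39 and 0.349 RPKM on day 0 (1.19 ± 0.33, adjusted p = 0.00421). For Lct the difference was 0.55 without culture 2 of day 5 (adjusted p = 0.116).

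The promoters of Alpi, Sis and Fos are shown as examples from the enterocyte genes that were higher and the immediate early genes that were lower. They were picked among promoters of these lists that hold a searched motif, so their matches were a condition of being shown. Each is the 150 bases before the RefSeq gene start on GRCm38.p6, the build also called mm10, 5′ to 3′ on the strand of the gene, and capitals mark a match to 1 motif. Alpi lies on the minus strand at chr1:87101607-87101756 and its capitals mark the HNF4 letters CAAAGTCCA, starting 19 bases before the gene start. Sis lies on the minus strand at chr3:72967864-72968013 and its capitals mark the CDX letters GCNATAAA, starting 53 bases before the start. Fos lies on the plus strand at chr12:85473740-85473889 and its capitals mark the cAMP response element core TGACGT, starting 66 bases before the start.
Alpi: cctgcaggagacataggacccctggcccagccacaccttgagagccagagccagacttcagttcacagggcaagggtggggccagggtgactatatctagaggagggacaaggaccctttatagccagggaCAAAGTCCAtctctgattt
Sis: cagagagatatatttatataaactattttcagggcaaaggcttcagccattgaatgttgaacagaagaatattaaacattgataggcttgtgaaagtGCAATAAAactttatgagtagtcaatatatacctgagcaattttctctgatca
Fos: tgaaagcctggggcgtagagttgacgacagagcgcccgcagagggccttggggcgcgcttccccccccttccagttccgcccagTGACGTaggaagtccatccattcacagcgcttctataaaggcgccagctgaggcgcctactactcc
Both strands were searched in windows of 250 bases before to 50 bases after the start, found for 9792 of the 12443 tested genes, and the CDX letters can overlap a TATA box. The HNF4 letters were in 2 of 16 brush border promoters with a window, in 0 of 14 promoters of the fat absorption list and in 0.531% of all windows. The CDX letters were in 3 of 16 brush border promoters, in 2 of 14 promoters of the fat absorption list and in 1.82% of all windows. The cAMP response element core was in 5 of 20 immediate early promoters and in 12.2% of all windows. Other lists lay on both sides, with 8 of 26 enteroendocrine, 9 of 32 ribosome biogenesis and 0 of 13 stem cell promoters. The CDX letters were also in 4 of 16 retinoid metabolism promoters and in 0 of 17 microvillus promoters. A match is a description of the letters only.

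Structural genes of the microvillus gave 15 higher and 2 lower of 21 tested and a median of 0.69 (19 higher and 1 lower after median-of-ratios scaling). Vil1, the actin bundler villin, had 266, 294, 291 and 290.4 RPKM on day 5, against 214, 217, 216 and 212 RPKM on day 0 (0.41 ± 0.09, adjusted p = 0.00102). Myo1a, the brush border myosin, had 209.6, 209.8, 186 and 190.5 RPKM on day 5, against 39.3, 39.7, 37.8 and 36.7 RPKM on day 0 (2.34 ± 0.14, adjusted p = 5.41e-10). Neither gene overlapped between the days.

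Fat absorption genes were higher in every tested member: 19 of 19, with 0 lower and the same counts after median-of-ratios scaling, beside 18.7% over all genes. The median was -0.68 on day 1, -0.73 on day 3, 1.46 on day 4 and 2.27 on day 5. Apoa1, the structural apolipoprotein of HDL that enterocytes also load on chylomicrons, had 1718, 1844, 1601 and 1713 RPKM on day 5, against 13.6, 12.8, 14.9 and 15.1 RPKM on day 0 (6.83 ± 0.24, adjusted p = 1.17e-12). Fabp1, the fatty acid binding protein of liver and proximal intestine, had 5937, 5753, 8520.0 and 8565 RPKM on day 5, against 169, 195, 314 and 287 RPKM on day 0 (4.91 ± 0.36, adjusted p = 9.8e-09), and culture 2 was the higher on both days. Apoa4 had 1123, 1213, 1945 and 2145 RPKM on day 5, against 73.5, 77.9, 84 and 90.3 RPKM on day 0 (4.23 ± 0.45, adjusted p = 7.09e-07). Mttp, which lipidates apolipoprotein B, had 512, 491, 481 and 473 RPKM on day 5, against 66.7, 65, 72.7 and 69.7 RPKM on day 0 (2.82 ± 0.17, adjusted p = 7.93e-10), while Apob itself rose by 1.06 (adjusted p = 0.000207). In none of these genes did the days overlap.

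Sugar and peptide transport followed, with 18 higher and 1 lower of 20 tested (18 higher and 1 lower after median-of-ratios scaling). Slc5a1, the sodium-glucose cotransporter SGLT1, had 435, 381, 398 and 396 RPKM on day 5, against 65.2, 62.8, 72.3 and 69.6 RPKM on day 0 (2.56 ± 0.19, adjusted p = 7.69e-09). The basolateral glucose carrier Slc2a2 and the fructose carrier Slc2a5 rose by 3.54 and 2.89 (adjusted p = 3.47e-08 for Slc2a2 and 7.74e-05 for Slc2a5). Slc15a1, the peptide transporter PEPT1, stayed a low transcript, with 4.53, 4.38, 4.74 and 5.37 RPKM on day 5, against 0.585, 0.697, 0.461 and 0.545 RPKM on day 0 (1.87 ± 0.18, adjusted p = 1.46e-07).

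Along the crypt-villus axis the day 5 profile held genes of lower and upper villus. Villus bottom genes gave 7 higher and 1 lower of 9 tested (7 higher and 0 lower after median-of-ratios scaling). Reg1, a secreted C-type lectin, had 1154, 989, 1609 and 1688 RPKM on day 5, against 9.56, 8.23, 11.9 and 12.1 RPKM on day 0 (6.87 ± 0.42, adjusted p = 1.52e-09). Reg3a, its antibacterial relative, had 83.6, 68.6, 193 and 191 RPKM on day 5, against 2.16, 1.46, 2.81 and 2.44 RPKM on day 0 (5.26 ± 0.64, adjusted p = 2.68e-06), with culture 2 above culture 1. Reg3b, another member of that family, was lower, with 24.6, 13.6, 26.1 and 25 RPKM on day 5, against 53.9, 62.2, 53.7 and 53.5 RPKM on day 0 (-1.32 ± 0.46, adjusted p = 0.0173), a call that missed the threshold after median-of-ratios scaling (-0.96, adjusted p = 0.0811). The Reg3b difference was -1.10 without culture 1 of day 5 (adjusted p = 0.117), -1.27 without culture 1 of day 0 (adjusted p = 0.0694) and -1.38 without culture 2 of day 0 (adjusted p = 0.0502). Villus tip genes gave 7 higher and 2 lower of 16 tested (8 higher and 1 lower after median-of-ratios scaling). The median of this list was 1.10 in culture 1 and 0.05 in culture 2. Krt20, a keratin of mature surface cells, had 259, 254, 144 and 154 RPKM on day 5, against 17.7, 18.5, 16.5 and 15.3 RPKM on day 0 (3.45 ± 0.30, adjusted p = 6.72e-08). Ada, the adenosine deaminase of the villus tip, had 56.1, 64.5, 15.2 and 17.8 RPKM on day 5, against 9.99, 8.23, 9.25 and 9.24 RPKM on day 0 (1.69 ± 0.63, adjusted p = 0.0249). For Ada the difference was 0.78 without culture 1 of day 5 (adjusted p = 0.347), 1.67 without culture 1 of day 0 (adjusted p = 0.0788) and 1.70 without culture 2 of day 0 (adjusted p = 0.0748). Nt5e, the tip ectonucleotidase CD73, was above the day 0 range in culture 1, with 5.6, 6.57, 0.242 and 0.48 RPKM on day 5, against 0.255, 0.354, 0.196 and 0.483 RPKM on day 0 (1.23 ± 0.62, adjusted p = 0.0854, and 1.23, adjusted p = 0.0366 with the culture as a block). Without culture 2 of day 5 its difference was 2.42, adjusted p = 0.0018.

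Regional genes were compared as well. Gata4, the transcription factor that marks the proximal small intestine, had 67.9, 69.1, 69.5 and 67.4 RPKM on day 5, against 74.5, 73.4, 80.6 and 80.7 RPKM on day 0, a log2 difference of -0.17 with an interval of -0.34 to 0.00 (adjusted p = 0.068). Onecut2, a duodenal factor, had 14.4, 12.4, 8.55 and 8.77 RPKM on day 5, against 13, 12.7, 11.7 and 10.5 RPKM on day 0 and overlapped between the days (interval -0.54 to 0.26, adjusted p = 0.52). Of 14 tested proximal genes 9 were higher and 1 lower (10 higher and 0 lower after median-of-ratios scaling), led by Adh6a, an alcohol dehydrogenase, with 358, 296, 290.2 and 293 RPKM on day 5, against 3.35, 3.86, 4.49 and 3.29 RPKM on day 0 (6.03 ± 0.31, adjusted p = 1.7e-10). Of 13 tested distal and bile acid genes 9 were higher and 1 lower (9 higher and 1 lower after median-of-ratios scaling), led by the basolateral bile acid carrier subunits Slc51a (4.01 ± 0.26, adjusted p = 2.09e-09) and Slc51b (3.05 ± 0.25, adjusted p = 3.27e-08). Colon and stomach genes gave 1 higher and 3 lower of 10 tested (2 higher and 2 lower after median-of-ratios scaling). Without Pgc, which passed the filter only through day 0, 2 of 9 (22.2%) were lower, beside 51.1% of all genes. Pgc, the stomach zymogen progastricsin, had 0.552, 0.365, 0.392 and 0.354 RPKM on day 5, against 11, 9.4, 9.65 and 9.25 RPKM on day 0, levels whose direction the filter fixed.

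Transcription factors of the intestine differed among themselves (11 higher and 8 lower of 28 tested, 15 higher and 6 lower after median-of-ratios scaling). Without 1 member that passed the filter only through day 0, 11 were higher and 7 lower of 27. Hnf4a, a master factor of enterocytes, was near its day 0 level with 258, 274, 227 and 234 RPKM on day 5, against 221, 212, 221 and 213 RPKM on day 0 (0.19, interval 0.00 to 0.39, adjusted p = 0.0756). The Hnf4a difference was 0.57, adjusted p = 4.4e-05 after median-of-ratios scaling, 0.19, adjusted p = 0.0381 with the culture as a block, and 0.29, adjusted p = 0.0214 without culture 2 of day 5. Its paralog Hnf4g had 128, 97.1, 77.6 and 86.3 RPKM on day 5, against 18.8, 18.5, 17.8 and 17.9 RPKM on day 0 (2.33 ± 0.18, adjusted p = 1.4e-08). Isx, a homeobox repressor of vitamin A uptake that retinoic acid induces, was at trace level on day 0, with 93.5, 99.2, 138 and 138 RPKM on day 5, against 0.26, 0.494, 0.672 and 0.19 RPKM on day 0 (6.39 ± 0.14, adjusted p = 5.14e-15). It was already at 6.16 on day 3. Cdx1, the homeobox factor of crypts, fell by 0.61 on the log2 scale (adjusted p = 0.0211), and the difference was -0.23, adjusted p = 0.386 after median-of-ratios scaling. The Cdx1 difference was -0.33 without culture 1 of day 5 (adjusted p = 0.268) and -0.51 without culture 2 of day 0 (adjusted p = 0.122).

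Fetal-like genes had not returned to their starting level. In that list 18 of 21 tested members were higher and 1 lower, with 18 higher and 0 lower after median-of-ratios scaling. The median was 3.87 on day 1, 3.90 on day 3, 3.06 on day 4 and 2.69 on day 5. Ly6a, the surface antigen Sca-1 of injured and fetal-like epithelium, had 130.5, 111, 48.4 and 47 RPKM on day 5, against 6.11, 7.61, 4.75 and 6.16 RPKM on day 0 (3.44 ± 0.49, adjusted p = 1.24e-05), culture 1 above culture 2 and both above day 0. Clu, which marks the revival stem cell, had 138, 104, 108 and 111 RPKM on day 5, against 19, 18.3, 13.6 and 12.8 RPKM on day 0 (2.79 ± 0.26, adjusted p = 1.47e-07). Msln, mesothelin, had 221, 197, 97.5 and 95.8 RPKM on day 5, against 3.9, 5.54, 4.19 and 4.32 RPKM on day 0 (4.71 ± 0.34, adjusted p = 1.07e-08). On day 3 the log2 difference of these genes from day 0 was 5.43 for Ly6a, 4.48 for Clu and 5.51 for Msln, and the change between days 3 and 5 was not tested here. Anxa1, a phospholipid-binding protein, had 70.3, 59.3, 31.3 and 31.9 RPKM on day 5, against 19.5, 24.2, 10.7 and 14.3 RPKM on day 0 (1.41 ± 0.52, adjusted p = 0.0227). For Anxa1 the difference was 0.90 without culture 1 of day 5 (adjusted p = 0.223) and 1.03 without culture 2 of day 0 (adjusted p = 0.167). The basement membrane collagen Col4a1 was almost absent on day 0, with 10.1, 7.92, 4.75 and 4.45 RPKM on day 5, against 0.105, 0.0616, 0.0711 and 0.0854 RPKM on day 0 (2.79 ± 0.22, adjusted p = 1.65e-08).

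YAP target genes did not move as a block, with 7 higher and 9 lower of 20 tested (9 higher and 3 lower after median-of-ratios scaling). Over all genes 18.7% were higher and 51.1% lower, and after that scaling 32.8% were higher and 29% lower. Ccn1, a matricellular protein that is also an immediate early gene, had 6.61, 5.81, 4.13 and 5.24 RPKM on day 5, against 159, 169.8, 150.2 and 149 RPKM on day 0 (-4.63 ± 0.34, adjusted p = 1.09e-08). Its relative Ccn2 went the other way, with 9.88, 8.00, 5.58 and 5.71 RPKM on day 5, against 1.94, 2.3, 2.9 and 2.62 RPKM on day 0 (1.25 ± 0.30, adjusted p = 0.00172). Ankrd1, a cardiac ankyrin repeat protein widely used as a YAP readout, had 5.78, 3.36, 1.76 and 1.94 RPKM on day 5, against 0, 0.0772, 0.0593 and 0.0321 RPKM on day 0 (1.92 ± 0.34, adjusted p = 0.000102). Of the EGF family ligands, Areg rose by 1.95 (adjusted p = 0.0132) and Hbegf fell by 2.11 on the log2 scale (adjusted p = 0.00013). The Areg difference was 1.02 without culture 1 of day 5 (adjusted p = 0.232) and 1.87 without culture 1 of day 0 (adjusted p = 0.0578). The simple keratin Krt19 had 1695, 1784, 1613 and 1553 RPKM on day 5, against 566, 595, 616 and 646 RPKM on day 0 (1.45 ± 0.13, adjusted p = 9.61e-08).

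Immediate early genes, which are transcribed within minutes of a stimulus without new protein synthesis, include some of the largest decreases. In the values as deposited, the list was called lower at a share near that of all genes. In the list 1 of 24 tested members were higher and 13 lower, beside 51.1% lower over all genes. After median-of-ratios scaling 3 were higher and 13 lower, beside 29% lower over all genes. Without the 4 members that passed the filter only through day 0, 9 of 20 (45%) were lower as deposited. The scaled counts were not taken without these members. Its median was -1.20 on day 1, -1.44 on day 3, -1.29 on day 4 and -1.32 on day 5. Fos, whose promoter is shown above, had 24.7, 21.9, 10.7 and 11.6 RPKM on day 5, against 277, 264, 304 and 315 RPKM on day 0 (-4.08 ± 0.46, adjusted p = 1.25e-06). Jun, its dimer partner, had 11.1, 11.2, 10.1 and 9 RPKM on day 5, against 176, 182, 169 and 182 RPKM on day 0 (-3.98 ± 0.14, adjusted p = 1.18e-12). Fosb had 0.0368, 0.0574, 0.0205 and 0.0556 RPKM on day 5, against 17.2, 17.3, 23.4 and 24.1 RPKM on day 0. Egr2 had 0.281, 0.0731, 0.131 and 0.118 RPKM on day 5, against 17.6, 17.1, 16.3 and 17 RPKM on day 0, and for Fosb and Egr2 the filter fixed the direction. For Fos and Jun all day 5 libraries lay below all day 0 libraries. Egr1 and Atf3 fell by 3.58 and 2.72 on the log2 scale (adjusted p = 4.7e-07 for Egr1 and 0.000153 for Atf3). The log2 difference from day 0 on day 1 was -3.39 for Fos and -3.73 for Jun. How those cells were handled before lysis is not given in the sources used here, and its part in these values was not tested.

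The metallothionein Mt2, a metal-binding protein, had 91, 97.5, 541 and 576 RPKM on day 5, against 3067, 3188, 3338 and 3372 RPKM on day 0 (-3.81 ± 0.79, adjusted p = 0.000452). All day 5 libraries were below those of day 0, and culture 2 of day 5 held several times the level of culture 1.

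Further genes were lower on day 5. Pla2g1b, a secreted phospholipase, had 0, 0.206, 0.111 and 0.0998 RPKM on day 5, against 20.6, 20.2, 36.9 and 30.2 RPKM on day 0, and 1 of the day 5 libraries listed it at 0. For Pla2g1b the filter fixed the direction. Kif12, a kinesin, had 0.369, 0.991, 2.02 and 2.13 RPKM on day 5, against 39.5, 36, 35 and 35.3 RPKM on day 0 (-4.05 ± 0.26, adjusted p = 2.13e-09). Igfbp2, an IGF-binding protein, had 0.687, 1.23, 0.767 and 0.84 RPKM on day 5, against 27.7, 23.7, 23.8 and 26.1 RPKM on day 0 (-3.81 ± 0.28, adjusted p = 7.74e-09). Thbs1, the matricellular thrombospondin, fell by 3.71, the small G protein Rasd1 by 3.65 and the synaptic immediate early gene Arc by 3.76 on the log2 scale (adjusted p = 2.09e-09, 1.59e-12 and 1.14e-12 in that order). On the side of the increases stood Clec2h, a C-type lectin-like receptor of intestinal epithelium, with 140.3, 134, 63.6 and 68.1 RPKM on day 5, against 0.324, 0.284, 0.242 and 0.446 RPKM on day 0 (6.18 ± 0.25, adjusted p = 7.62e-12). With it stood the cytokine-like Fam3b (5.07 ± 0.24, adjusted p = 6.19e-11), the actin-capping protein Capg (4.92 ± 0.33, adjusted p = 3.5e-09) and the glutathione hydrolase Ggt1 (4.97 ± 0.35, adjusted p = 6.68e-09). The table entry Mir147 also rose, with 726, 675, 289 and 282 RPKM on day 5, against 21.4, 12.9, 7.95 and 9.32 RPKM on day 0 (5.10 ± 0.78, adjusted p = 2.69e-05). On GRCm38.p6 it lies at chr2:122640803-122640881, inside the protein-coding gene AA467197 at chr2:122637887-122641076, and in a library of mRNA the reads of the pair cannot be told apart.

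Detoxification genes were mostly higher on day 5. In the xenobiotic list 38 of 45 tested members were higher and 3 lower, with a median of 1.56 and 38 higher and 3 lower after median-of-ratios scaling. By day the median was -1.64 on day 1, -1.32 on day 3, 0.89 on day 4 and 1.56 on day 5. Gsta1, a glutathione transferase, had 2220.0, 1974, 1685 and 1622 RPKM on day 5, against 213, 217, 242 and 243 RPKM on day 0 (3.02 ± 0.14, adjusted p = 3.94e-11). Fmo5, a flavin monooxygenase, had 78.8, 69.3, 74.5 and 72.7 RPKM on day 5, against 0.789, 0.627, 0.709 and 0.564 RPKM on day 0 (5.48 ± 0.17, adjusted p = 2.49e-13). Cyp3a11, the main drug-metabolising P450 of the mouse, had 66.8, 54.5, 138 and 137 RPKM on day 5, against 29.2, 27.3, 34.9 and 29.9 RPKM on day 0 (1.56 ± 0.55, adjusted p = 0.0186). For Cyp3a11 the difference was 0.97 without culture 2 of day 5 (adjusted p = 0.195) and 1.47 without culture 1 of day 0 (adjusted p = 0.0777). Cyp2c29, another P450, had 39.7, 31, 119 and 107 RPKM on day 5, against 34.5, 37.1, 41.2 and 41.7 RPKM on day 0 (0.70 ± 0.68, adjusted p = 0.365), with culture 2 of day 5 above the day 0 range and culture 1 overlapping it. NRF2 antioxidant genes gave 21 higher and 1 lower of 23 tested (22 higher and 0 lower after median-of-ratios scaling), among them the quinone reductase Nqo1 (1.95 ± 0.19, adjusted p = 1.99e-07) and the sulfiredoxin Srxn1 (2.08 ± 0.20, adjusted p = 1.55e-07).

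Retinoid metabolism, which makes and clears the ligand of the retinoic acid receptors, differed between the days in many members. Here 14 of 21 tested members were higher and 5 lower, with 14 higher and 5 lower after median-of-ratios scaling. Leaving out 1 member that passed the filter only through day 0, 14 were higher and 4 lower of 20. Rbp2, the cellular retinol-binding protein of enterocytes, had 865, 815, 1499 and 1532 RPKM on day 5, against 79.1, 70.2, 96.1 and 99.3 RPKM on day 0 (3.71 ± 0.44, adjusted p = 1.91e-06). Aldh1a1, which makes retinoic acid from retinal, had 276, 253, 339 and 324 RPKM on day 5, against 27.2, 29.8, 29.5 and 26.2 RPKM on day 0 (3.35 ± 0.30, adjusted p = 1.06e-07). The alcohol dehydrogenases Adh1 and Adh4 rose by 4.48 and 5.54 (adjusted p = 6.11e-09 for Adh1 and 4.83e-12 for Adh4).

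Among genes of energy metabolism, PPAR targets gave 21 higher and 3 lower of 29 tested (22 higher and 1 lower after median-of-ratios scaling). Cpt1a, the carnitine transferase that admits fatty acids to mitochondria, had 46.7, 46.9, 41.3 and 40.0 RPKM on day 5, against 20.3, 19.9, 20.9 and 19.3 RPKM on day 0 (1.08 ± 0.09, adjusted p = 2.95e-08). Glycolysis genes gave 14 higher and 3 lower of 26 tested (18 higher and 1 lower after median-of-ratios scaling). Ldha, lactate dehydrogenase A, had 1746, 1710.0, 1784 and 1751 RPKM on day 5, against 696, 685, 731 and 766 RPKM on day 0 (1.28 ± 0.21, adjusted p = 4.48e-05), while the hexokinase Hk2 fell by 0.96 (adjusted p = 0.000329). In arginine metabolism Arg2, the mitochondrial arginase, rose by 3.06 and Ass1, argininosuccinate synthase, fell by 1.73 (adjusted p = 7.45e-07 for Arg2 and 2.74e-07 for Ass1).

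Ion transport genes moved both ways. Across the list 14 of 29 tested members were higher and 6 lower, with 18 higher and 6 lower after median-of-ratios scaling. The apical anion exchanger Slc26a6 had 79.2, 71.4, 63.5 and 64.1 RPKM on day 5, against 3.91, 3.71, 4.12 and 3.84 RPKM on day 0 (3.84 ± 0.13, adjusted p = 1.18e-12). Slc9a3, the sodium-proton exchanger of the absorptive brush border, had 20.4, 20.2, 19.6 and 20.8 RPKM on day 5, against 1.53, 2.15, 1.74 and 1.98 RPKM on day 0 (2.90 ± 0.23, adjusted p = 1.67e-08). Of the genes of fluid secretion, the chloride loader Slc12a2 had 43.5, 45.6, 78.6 and 80.4 RPKM on day 5, against 319.7, 313, 288 and 277 RPKM on day 0 (-2.31 ± 0.19, adjusted p = 2.63e-08). The chloride channel Cftr had 23.6, 21.5, 22.1 and 22.1 RPKM on day 5, against 46.1, 47, 45.5 and 42.4 RPKM on day 0 (-0.99 ± 0.18, adjusted p = 0.000114), and the potassium channel Kcnq1 fell by 1.62 (adjusted p = 5.97e-09). None of these ion transport genes overlapped between the days.

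Defence genes were higher in 11 and lower in 4 of 17 tested members of the antimicrobial list (12 higher and 3 lower after median-of-ratios scaling). Pigr, the receptor that carries IgA to the lumen, had 628, 645, 690.1 and 720.0 RPKM on day 5, against 309, 299, 364 and 358 RPKM on day 0 (1.01 ± 0.12, adjusted p = 1.85e-06). Il18, an epithelial cytokine, had 65.9, 55, 46.4 and 47.5 RPKM on day 5, against 1.24, 1.31, 1.65 and 1.72 RPKM on day 0 (4.45 ± 0.23, adjusted p = 1.16e-10). Oasl1, an interferon-induced protein, had 32.3, 36.4, 11.9 and 13.8 RPKM on day 5, against 1.08, 1.15, 1.29 and 1.58 RPKM on day 0 (3.28 ± 0.52, adjusted p = 3.58e-05). B2m, the light chain of MHC class I, rose by 1.02 (adjusted p = 7.84e-07). Most of its list was not called: MHC and antigen presentation genes gave 5 higher and 1 lower of 17 tested, 13 of them within 2-fold. After median-of-ratios scaling 11 were higher and 1 lower. Leaving out 1 member that passed the filter only through day 0, 5 were higher and 0 lower of 16. Over all genes 18.7% were higher, and 32.8% after that scaling. Interferon-stimulated genes gave 8 higher and 1 lower of 18 tested (11 higher and 0 lower after median-of-ratios scaling).

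Genes of respiration and protein folding lay mostly within 2-fold of the starting culture. Of 34 tested respiratory chain genes, 33 had intervals within 2-fold, against 65.1% of all genes, with 15 higher and 0 lower (31 higher and 0 lower after median-of-ratios scaling). Atp5b, the catalytic subunit of ATP synthase, had 1168, 1217, 1472 and 1435 RPKM on day 5, against 1223, 1237, 1270.0 and 1313 RPKM on day 0, overlapping between the days (interval -0.14 to 0.27, adjusted p = 0.573), and its difference was 0.44, adjusted p = 0.0018 after median-of-ratios scaling. Of 24 tested endoplasmic reticulum chaperone genes 23 were within 2-fold, with 6 higher and 6 lower, and 15 higher and 0 lower after median-of-ratios scaling. Hspa5, the chaperone BiP, had 328, 346, 367 and 360.0 RPKM on day 5, against 329, 336, 321 and 309.7 RPKM on day 0, also overlapping (interval -0.22 to 0.45, adjusted p = 0.532; 0.49, adjusted p = 0.0193 after that scaling). Cholesterol synthesis genes, at a share within 2-fold near that of all genes, gave 18 higher and 2 lower of 26 tested, 17 of them within 2-fold (24 higher and 0 lower after median-of-ratios scaling).

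List members with the narrowest intervals inside a log2 difference of 0.5 included Elovl1, G6pdx, Uqcrc2 and Ndufs1. Elovl1, a fatty acid elongase, had 72.2, 70.9, 68.1 and 69 RPKM on day 5, against 57.8, 58.6, 57.5 and 58.5 RPKM on day 0 (0.27 ± 0.06, adjusted p = 0.0017). G6pdx, the first enzyme of the pentose phosphate pathway, had 53.8, 49, 53.1 and 52.2 RPKM on day 5, against 51.7, 52.6, 52.1 and 51.7 RPKM on day 0 (0.00 ± 0.08, adjusted p = 0.997). Among subunits of the respiratory chain the difference was 0.21 ± 0.08, adjusted p = 0.0227 for Uqcrc2 and 0.02 ± 0.08, adjusted p = 0.853 for Ndufs1. The Uqcrc2 difference was 0.12 without culture 2 of day 5 (adjusted p = 0.236), 0.19 without culture 1 of day 0 (adjusted p = 0.0951) and 0.22 without culture 2 of day 0 (adjusted p = 0.0586). After median-of-ratios scaling all 4 were higher on day 5, at 0.64, adjusted p = 8.47e-07 for Elovl1, 0.37, adjusted p = 0.000866 for G6pdx, 0.59, adjusted p = 1.67e-05 for Uqcrc2 and 0.39, adjusted p = 0.000326 for Ndufs1.

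The distance from day 0 over all tested genes was compared by day. The median absolute log2 difference from the day 0 mean was 0.419 on day 1, 0.389 on day 3, 0.435 on day 4 and 0.504 on day 5. On these days 1735, 1690, 1895 and 2250 genes lay more than 2-fold away, in that order. These values share the day 0 libraries, have no test, and were 0.409, 0.388, 0.389 and 0.420 after median-of-ratios scaling. Each culture was also set against the day 0 culture of the same number. With that scaling the cultures went opposite ways, culture 1 standing at 0.440 on day 1 and 0.490 on day 5, and culture 2 at 0.400 on day 1 and 0.366 on day 5. As deposited both stood higher on day 5, culture 1 at 0.448 on day 1 and 0.583 on day 5, and culture 2 at 0.409 and 0.439. Culture 1 of day 1 rests on 1 library, since its shallow duplicate was left out. At an adjusted p under 0.05, 61.2% of genes differed from day 0 on day 1, 58.2% on day 3 and 63.5% on day 4. On day 5 the groups given 10 µM all-trans retinoic acid or 5 µM of an RXR antagonist lay at 0.479 and 0.718, beside 0.504 in the vehicle group.

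**Figure D3:**
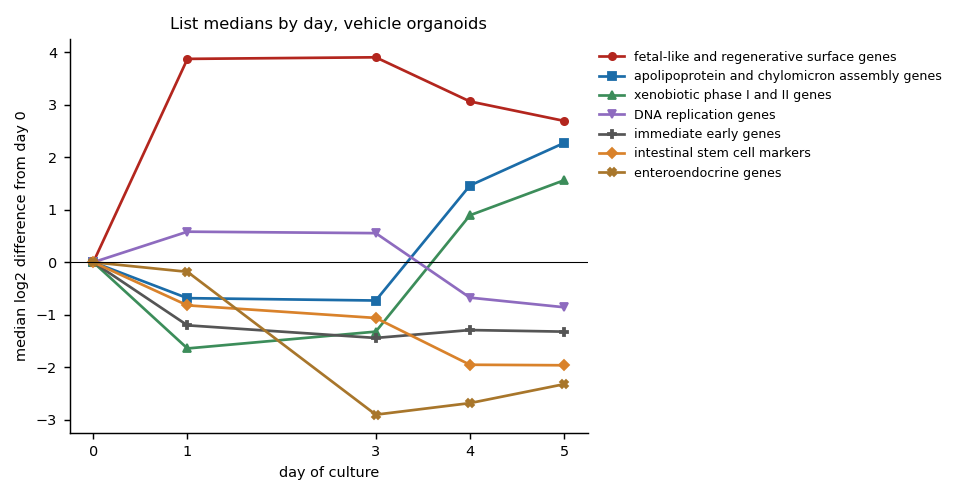
Median log2 difference from day 0 of gene lists on days 0, 1, 3, 4 and 5 of vehicle organoids; day 0 is 0 by construction and all points share its libraries. The fetal-like list stands at 3.90 on day 3 and 2.69 on day 5, and the fat absorption list stands at -0.73 on day 3 and 2.27 on day 5.

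The 2 cultures differed more from each other on day 5 than on day 0. The median absolute log2 difference between the cultures was 0.213 on day 5, against 0.085 on day 0, and 242 genes differed more than 2-fold between them on day 5, against 46 on day 0. Between duplicates of a culture it was 0.118 and 0.0692 on day 5, against 0.0637 and 0.0695 on day 0, so on day 5 the cultures lay farther apart than the duplicates. Each culture was also set against the day 0 culture of the same number. Culture 1 was the farther from it, with a median absolute difference of 0.583 and 2980 genes beyond 2-fold, against 0.439 and 1827 genes in culture 2. In culture 1 the list medians of day 5 were 2.89 for fetal-like genes and -1.17 for DNA replication, and in culture 2 they were 2.06 and -0.52. With 1 culture on each side this difference has no replicate check.

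**Figure D4:**
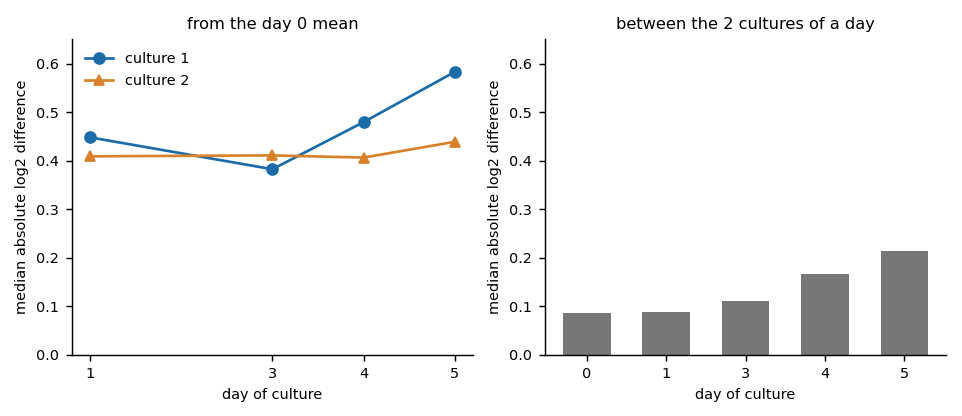
Left, median absolute log2 difference of each culture from the same-numbered day 0 culture, by day. The panel title calls this the day 0 mean, which here is the mean of the duplicates of that culture. Right, the same measure between the 2 cultures of a day. Culture 1 reaches 0.583 and culture 2 0.439 on day 5, and the gap between cultures is 0.085 on day 0 and 0.213 on day 5.

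**Figure D5:**
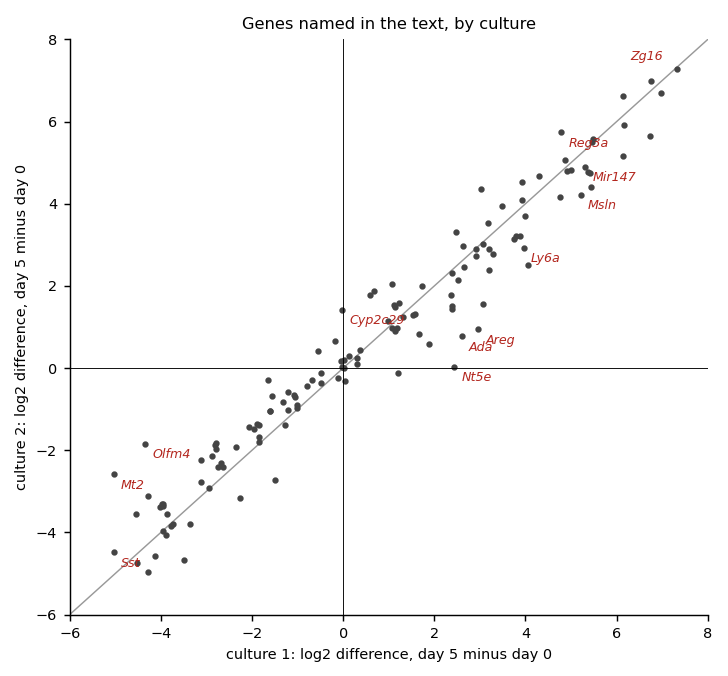
Log2 difference, day 5 minus day 0, in culture 1 (horizontal) and culture 2 (vertical) for the genes named in the text; the grey line marks equal values. Olfm4 and Mt2 lie above the line, nearer to day 0 in culture 2, and Nt5e, Ada, Areg and Ly6a lie below it, higher in culture 1.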

How the data were processed

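Per the labels' protocols, RNA of mouse intestinal organoids was purified in duplicate from 2 cultures per group and made into TruSeq mRNA libraries. The submitters' processing notes list STAR 2.5.2b and mm10 as build. The counting tool, its annotation and strand setting are not stated there, and reads of overlapping genes may be mixed. RPKM values, as deposited in 1 table by the authors, covered 24116 genes in 52 libraries, without counts. All 19708 genes above 0 came out as whole reads within 0.001 read, and their sums are the depths given.

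Duplicates were averaged on the log2(RPKM + 1) scale and limma 3.58.1 in R 4.3.3 was fitted to culture means of all 13 groups, with a variance trend, robust moderation and 13 residual degrees of freedom. A fold change on this scale understates the change of low genes. The filter asked for 1 RPKM or more in 4 or more libraries and kept 12443 genes, leaving out 11673. One vehicle library of day 1, duplicate 2 of culture 1, with 12443 reads, was left out. Adjusted p-values are two-sided, by Benjamini-Hochberg over all tested genes, with a threshold of 0.05, and a gene is within 2-fold where its 95% interval lies inside a log2 difference of 1 either way. In a gene of 1 kb, 3 reads are worth 0.157 to 0.233 RPKM in the 8 libraries, so values near or under that rest on few reads, and counting error is large there. Intervals rest on the spread between the 2 littermate cultures of a group, pooled per gene over all 13 groups and moderated. They do not measure the spread of the day 0 and day 5 cultures alone. The fitting step was tested on simulated data.

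The comparison and the gene lists were chosen with earlier results of these data known. Named genes are the 15 largest differences each way with a mean of at least 5 RPKM in the higher group, apart from predicted models (75 higher and 271 lower called), then defining and lowest-p members of the lists, and the 5 narrowest intervals, and the text gives part of these, since some items are not reported here. Culture numbers are taken as marking the same 2 cultures in every group, from the library names. The deviations of same-numbered cultures from their group means correlated at 0.138 between day 5 and day 0 across genes, and over 78 pairs of groups the median was 0.149, the range -0.317 to 0.759, with 47 above 0.1. Alternatives were other pseudocounts, filters, scalings and group sets, a block for culture, limma-voom on the recovered reads, and leaving out each library or culture.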

Additional observations from a re-analysis of the deposited data

Results flagged for a closer look

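Within the 4 libraries of a day, 8 single values among 266 groups of the genes named stood apart from the other 3 by Dixon's criterion, which chance meets in about 1 of 20 groups of independent values. The 4 libraries are 2 duplicates each of 2 cultures, so that rate is only a rough guide here. On day 5, Adh6a was highest in culture 1, duplicate 1, at 358 RPKM with the other 3 libraries at 290.2 to 296 RPKM, a gap of 0.901 of the group's range. On day 0, Arc was highest in culture 1, duplicate 1, at 20.3 RPKM with the other 3 libraries at 18.8 to 18.9 RPKM, a gap of 0.912 of the group's range. On day 5, Chga was lowest in culture 1, duplicate 1, at 13.2 RPKM with the other 3 libraries at 18 to 18.4 RPKM, a gap of 0.937 of the group's range. On day 0, Id3 was lowest in culture 1, duplicate 1, at 1.84 RPKM with the other 3 libraries at 2.91 to 2.93 RPKM, a gap of 0.986 of the group's range. On day 0, Pou2f3 was lowest in culture 1, duplicate 2, at 1.92 RPKM with the other 3 libraries at 3.01 to 3.01 RPKM, a gap of 0.997 of the group's range. On day 0, Reg3b was highest in culture 1, duplicate 2, at 62.2 RPKM with the other 3 libraries at 53.5 to 53.9 RPKM, a gap of 0.945 of the group's range. On day 5, Reg3b was lowest in culture 1, duplicate 2, at 13.6 RPKM with the other 3 libraries at 24.6 to 26.1 RPKM, a gap of 0.911 of the group's range. On day 5, Vil1 was lowest in culture 1, duplicate 1, at 266 RPKM with the other 3 libraries at 290.4 to 294 RPKM, a gap of 0.891 of the group's range. All 8 came from culture 1. The criterion asks for a value apart from the other 3 libraries, so the duplicate of the same culture could not share it.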

How the results depend on the processing

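Median-of-ratios scaling gave 4082 higher and 3606 lower genes, beside 2333 and 6353. It ended 5 of the 120 calls among the 133 genes named and added 5, one of them G6pdx, whose difference of 0.00 became 0.37 (adjusted p = 0.000866). Keeping the shallow day 1 library left 1489 higher and 3718 lower genes on day 5, 3885 genes differing from day 0 on day 3 and 4441 on day 4, beside 7245 and 7900, and ended 7 of the named calls. A margin of 1.5-fold in place of 2-fold held 3853 genes, beside 8102. Without a filter on low values 15303 genes lay within 2-fold, and the median absolute difference was 0.274. With a pseudocount of 0.1 RPKM it was 0.607, beside 0.504. For the moved values other than those of the wider gene set and the narrower margin the cause was not tested. With culture as a replicate block, 2461 genes were higher and 6509 lower, and among the named genes the block changed no call except Nt5e and Hnf4a. Limma-voom on the recovered reads gave 2308 and 6227 and ended 1 named call. A fit to day 0 and day 5 alone gave 1776 and 4973 and ended 6, among them Ascl2, Elovl1 and Uqcrc2. Leaving out a single library gave 2320 to 2382 higher and 6217 to 6379 lower genes and changed no named call, though 5 named genes dropped below the filter when a day 0 library was left out. Leaving out a whole culture gave 1839 to 2387 higher and 5412 to 6257 lower genes, with the lone culture assumed to vary like the other groups, and ended 9 named calls without culture 1 of day 5, 3 without culture 2 of day 5, 5 without culture 1 of day 0 and 6 without culture 2 of day 0. With 2 cultures per group and a spread pooled over all 13 groups, intervals are wide for genes on which the cultures of the groups differ.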
